A study of Mus musculus with 10 samples.

Results

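The keratin genes (symbols beginning with Krt and a digit) and the keratin-associated genes (symbols beginning with Krtap and a digit) were followed through the maturation of the mouse retina in 2 histone modifications. They were taken from the deposited table by symbol and not by a limit on any value, although the members were chosen with earlier results of these data known. They numbered 101 of 20045 gene symbols, with 52 keratins and 49 keratin-associated genes. H3K4me2, which is found at active and poised promoters, and H3K27me3, which is laid down by the Polycomb complex at repressed genes, were measured by ChIP-Seq (chromatin immunoprecipitation followed by sequencing) in retinas of 4 stages, late in gestation (E17.5, embryonic day) and after birth (PN1, PN7 and PN15, postnatal day). Each mark and stage has 1 library, made from a pool of at least 20 retinas, so that no difference between stages has a replicate to be set against and none was tested. The study's methods describe wild type C57BL/6j mice for these 4 stages, whereas the sample labels name the strain Pde6b rd1/rd1 for every library and write the embryonic stage as E17, and the catalogue numbers of the antibodies against the 2 marks are interchanged between labels and methods; the mark of a library was taken from its title. All values are normalized occupancy, the reads within 2.5 kb of a transcription start site (TSS) scaled by the authors to the total of mapped reads and then rounded. Values of the 4 stages are given below in the order E17.5, PN1, PN7, PN15.

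Keratins are the intermediate filament proteins of epithelial cells and assemble as pairs of an acidic type I and a basic type II chain. Simple epithelia use Krt8 and Krt18, the basal layer of stratified epithelia uses Krt5 and Krt14, the layers above it use others such as Krt1 and Krt10, and the hair follicle has sets of its own for the inner root sheath and for the hair shaft. The keratin-associated proteins are small, often cysteine-rich or glycine and tyrosine-rich proteins of the matrix in which the hair keratin filaments lie. The neural retina is built of neurons and Müller glia, whose intermediate filaments are neurofilaments, nestin, vimentin and Gfap rather than keratins.

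Most of the genes lie in 4 tandem clusters in the mm9 genome. The type II keratins, with the type I gene Krt18 at the end, fill a region of 0.685 Mb on chromosome 15 (chr15:101177875-101862457, 24 genes). The remaining type I keratins lie on chromosome 11 on either side of a block of keratin-associated genes (12 keratins at chr11:99094075-99404472, then 21 keratin-associated genes at chr11:99411446-99855308, then 15 keratins at chr11:99872509-100131185). A further 20 keratin-associated genes lie at chr16:88610954-89571428, 5 genes of the Krtap5 group at chr7:149360437-149490408 and 2 on chromosome 10. Krt85 and Krtap10-10 had no position in the annotation used. The gene called Krt83 in the table is the one that RefSeq now lists as Krt87.

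The promoters of the 2 families differ from most promoters in their sequence. A RefSeq promoter of 300 bases (250 before to 50 after the TSS, GRCm38.p6) was matched for 79 of the 101 genes. The motif TATAAA, the core of the TATA box, was found on either strand in 54.3% of the 35 matched keratin promoters and in 81.8% of the 44 keratin-associated promoters, against 13.6% of all 32851 promoters of the same table. The median number of CpG dinucleotides, whose clustering marks CpG island promoters and the usual places of Polycomb binding, was 5 in keratin and 2 in keratin-associated promoters and 7 in all. The 7 promoters below belong to members described most closely: the 3 simple epithelial keratins Krt7, Krt8 and Krt18, with high H3K27me3 at every stage, Krt72 and Krt73, where it rose most within a run of neighbours, Krtap17-1, with the most H3K27me3 among the keratin-associated genes, and Krtap3-2, with the most H3K4me2 among them. Capitals mark CpG dinucleotides, and each sequence runs 5′ to 3′ on the strand of the gene.
Krt7 (chr15:101412153-101412452, + strand): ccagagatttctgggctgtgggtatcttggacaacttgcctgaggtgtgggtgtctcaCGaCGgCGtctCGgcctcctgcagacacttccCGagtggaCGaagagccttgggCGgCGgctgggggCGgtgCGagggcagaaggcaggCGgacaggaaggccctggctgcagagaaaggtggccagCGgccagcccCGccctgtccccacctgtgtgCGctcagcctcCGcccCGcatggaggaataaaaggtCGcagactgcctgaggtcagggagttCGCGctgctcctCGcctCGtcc
Krt8 (chr15:102004293-102004592, - strand): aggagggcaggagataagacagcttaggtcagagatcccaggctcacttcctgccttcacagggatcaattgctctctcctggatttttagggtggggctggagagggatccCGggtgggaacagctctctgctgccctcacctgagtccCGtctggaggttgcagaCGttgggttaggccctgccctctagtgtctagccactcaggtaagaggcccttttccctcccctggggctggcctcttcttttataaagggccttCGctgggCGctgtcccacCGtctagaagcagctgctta
Krt18 (chr15:102027966-102028265, + strand): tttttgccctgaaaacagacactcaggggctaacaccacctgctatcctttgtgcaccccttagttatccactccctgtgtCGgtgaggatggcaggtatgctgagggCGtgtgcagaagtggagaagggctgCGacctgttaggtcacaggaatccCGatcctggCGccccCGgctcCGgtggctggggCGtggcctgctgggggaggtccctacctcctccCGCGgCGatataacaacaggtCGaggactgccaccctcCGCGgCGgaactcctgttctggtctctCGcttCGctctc
Krt72 (chr15:101786471-101786770, - strand): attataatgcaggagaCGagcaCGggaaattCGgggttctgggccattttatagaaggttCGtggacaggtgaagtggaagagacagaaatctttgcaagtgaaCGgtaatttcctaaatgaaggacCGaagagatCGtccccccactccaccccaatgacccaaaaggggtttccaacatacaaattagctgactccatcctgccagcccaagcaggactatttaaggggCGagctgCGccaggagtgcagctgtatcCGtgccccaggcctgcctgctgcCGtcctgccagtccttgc
Krt73 (chr15:101802311-101802610, - strand): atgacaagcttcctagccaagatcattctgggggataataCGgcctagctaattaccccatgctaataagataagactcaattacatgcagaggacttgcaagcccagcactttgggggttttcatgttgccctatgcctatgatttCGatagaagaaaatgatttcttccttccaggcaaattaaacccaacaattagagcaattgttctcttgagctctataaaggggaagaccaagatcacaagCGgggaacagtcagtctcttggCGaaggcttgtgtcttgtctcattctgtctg
Krtap17-1 (chr11:99993945-99994244, - strand): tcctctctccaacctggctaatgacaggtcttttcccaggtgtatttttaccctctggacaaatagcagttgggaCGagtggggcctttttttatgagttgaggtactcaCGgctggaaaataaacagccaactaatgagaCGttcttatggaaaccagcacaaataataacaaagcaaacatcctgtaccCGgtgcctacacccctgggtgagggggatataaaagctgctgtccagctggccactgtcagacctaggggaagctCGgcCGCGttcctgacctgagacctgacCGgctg
Krtap3-2 (chr11:99556804-99557103, - strand): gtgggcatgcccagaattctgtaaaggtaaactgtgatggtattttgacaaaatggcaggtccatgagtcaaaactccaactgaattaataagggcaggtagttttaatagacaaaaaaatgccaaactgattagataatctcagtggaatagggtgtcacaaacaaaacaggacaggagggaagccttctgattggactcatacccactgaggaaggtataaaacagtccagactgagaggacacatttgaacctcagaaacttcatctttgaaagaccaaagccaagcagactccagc

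The promoters of Krt7 and Krt18 held 21 and 17 CpG but that of Krt8, with more H3K27me3 than Krt18 in every library, held 6, near the keratin median. Those of Krt72, Krt73 and Krtap17-1 held 11, 4 and 8, and that of Krtap3-2 held 0. In the whole 5 kb window in which occupancy was summed, the number of CpG had a median of 74 in the keratins (36 to 126, 51 genes placed) and 37.5 in the keratin-associated genes (13 to 82, 48 genes placed), beside 102 over 19476 symbols and 21 in olfactory receptor genes. Krt18 and Krt8, with 126 and 124, had the most among all members.

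The labelled tissue was checked against its markers. All 5 photoreceptor genes gained H3K4me2 from E17.5 to PN15, and their summed H3K4me2 was 85, 95, 109 and 480. Marker genes of other tissues of the eye were carried in the same libraries as a measure of other cells. Summed H3K4me2 of 4 lens genes was 55, 56, 24 and 27 and that of 3 endothelial genes was 64, 39, 34 and 17, with Mip at 0 at PN7 and Pecam1 at 0 at PN15. That of 5 genes of the retinal pigment epithelium was 70, 49, 51 and 90, of which Mitf had 57, 31, 49 and 67, while Rpe65 and Tyr had at most 5 and were at 0 at PN7, and that of 3 genes of Müller glia was 204, 156, 139 and 178. The 5 corneal genes, which include the members Krt12, Krt5 and Krt14, had 162, 123, 117 and 59, of which Pax6, also a gene of the retina, had 137, 97, 114 and 44. The PN7 library of H3K4me2 stood apart, with 19.5% of all entries at 0 against 0.362 to 2.52% in the other 3, so each step of this mark into or out of PN7 rests on that library. The PN7 library of H3K27me3 had 3.7% of entries at 0, against 0.0755 to 0.159% in the other 3. The PN15 library of H3K27me3 had the smallest sum over entries, 590366 against 790454 to 980808. Its highest value was 416, against 766 to 1125. The part of these library differences in the changes between stages was not tested.

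The background was read from the 1047 olfactory receptor genes of the same libraries, which serve the olfactory epithelium. Their median H3K27me3 was 7, 7, 6 and 10, and their median H3K4me2 was 2, 3, 0 and 2. A gene was called above background when its sum over the 4 stages exceeded the 95th percentile of the receptors, which was 93.7 for H3K27me3 and 15 for H3K4me2. The H3K4me2 limit is low, since it is a sum of 4 values.

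H3K27me3 was above background at 25 of 52 keratins, or 48.1%, and at 7 of 49 keratin-associated genes, or 14.3%, beside 23.8% of all symbols. H3K4me2 was above background at the same numbers, 25 keratins and 7 keratin-associated genes, beside 77.6% of all symbols. These counts depend on the limit. At the receptors' 99th percentile H3K27me3 was above it at 14 keratins and 4 keratin-associated genes, beside 15.8% of all symbols, and H3K4me2 at 15 and 2, beside 73.8%. With vomeronasal receptors as the background H3K27me3 was above it at 47 and 20, beside 39.5%. The median keratin had H3K27me3 of 18, 19, 25 and 31.5 at the 4 stages in order, against 9, 9, 12 and 14 for the median keratin-associated gene and 11, 10, 9 and 10 for the median of all symbols. Keratins thus lay above the typical gene in H3K27me3 and far below it in H3K4me2, whose median was 4, 6, 1 and 4 in keratins, 3, 4, 0 and 3 in keratin-associated genes and 41, 27, 24 and 42 in all symbols.

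**Figure D1:**
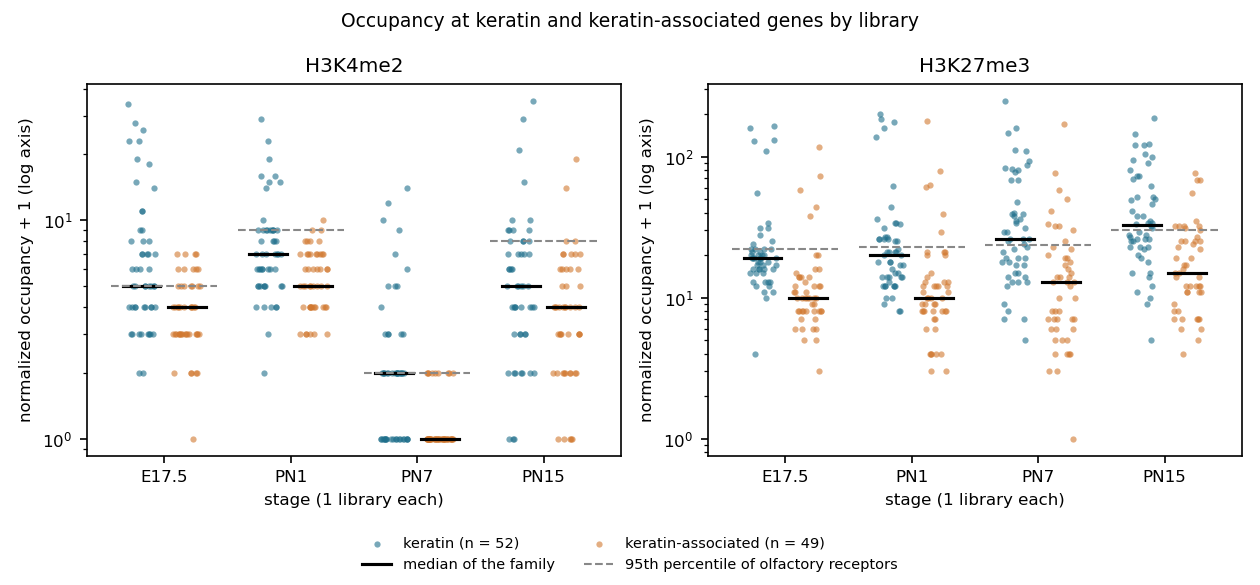
Normalized occupancy plus 1 (log axis) of each keratin and keratin-associated gene in the 8 libraries, by stage, with H3K4me2 on the left and H3K27me3 on the right. Black bars are family medians and dashed lines the 95th percentile of olfactory receptors; the keratin median of H3K27me3 moved from 18 at E17.5 to 31.5 at PN15, while both families stayed near the receptor line in H3K4me2.

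The number of libraries in which a gene cleared the background sorted the members further. Of the 52 keratins, 9 were above the receptors' 95th percentile of H3K27me3 in each of the 4 libraries, a share near the 15.5% of all symbols. They were Krt7, Krt8, Krt18, Krt19, Krt83, Krt86, Krt1, Krt77 and Krt14. Of the 49 keratin-associated genes 4 were, Krtap17-1, Krtap5-1, Krtap5-3 and Krtap5-4. For H3K4me2 the keratins that did so numbered 4, Krt18, Krt19, Krt222 and Krt73, and the keratin-associated genes 0, beside 66.9% of all symbols. Just under and just over the H3K27me3 limit lay Krt17 and Krtap4-2, with sums of 92 and 93, and Krt39 and Krtap9-3, with 97 and 98, so membership near the limit rests on a few units of occupancy. For H3K4me2, 10 members, among them Krt7, Krtap17-1 and Krtap4-1, had sums of 15, the limit itself, and Krt26, Krt40 and Krtap4-9 had 16.

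Taken by both marks, 12 keratins had both above background, 13 had H3K27me3 alone, 13 had H3K4me2 alone and 14 had neither. Among the keratin-associated genes these numbers were 1, 6, 6 and 36. Both marks were above background at 23.1% of keratins, beside 21.7% of all symbols, and H3K4me2 alone at 25% of keratins, beside 55.9%. H3K27me3 without H3K4me2 was the state of 25% of keratins and 12.2% of keratin-associated genes, beside 2.06% of all symbols, and neither mark was found at 73.5% of keratin-associated genes, beside 20.3% of all symbols. A state of both marks in a pooled tissue does not say that they sit on the same cell's chromatin, and fewer cells with a mark cannot be told apart from less of it per cell.

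**Figure D2:**
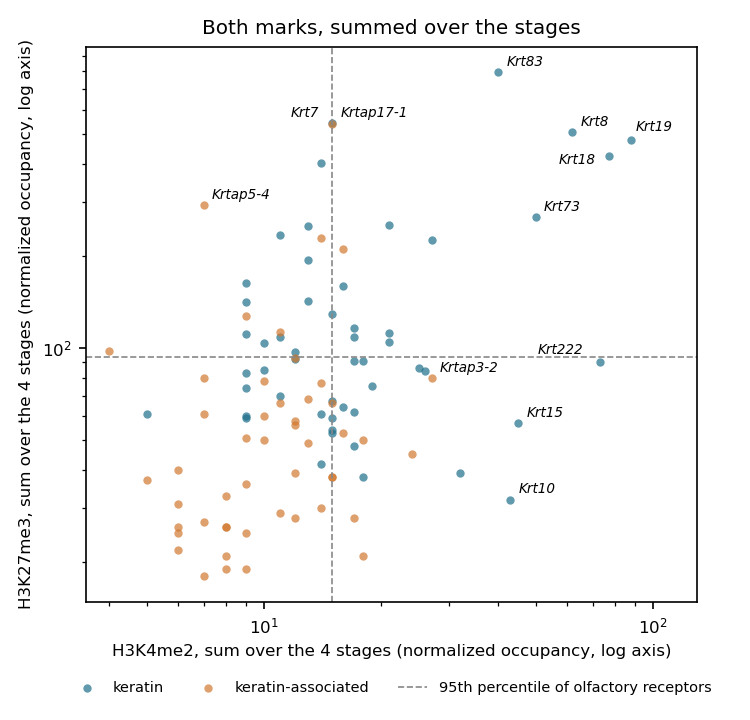
H3K27me3 against H3K4me2 at each member, each the sum of normalized occupancy over the 4 stages on log axes, with dashed lines at the receptors' 95th percentiles (15 and 93.7). Krt83, Krt8, Krt18 and Krt19 lie high in both marks, Krt7 and Krtap17-1 have H3K27me3 alone with H3K4me2 sums of 15 on the limit, Krt222, Krt15 and Krt10 have H3K4me2 alone (Krt222 with an H3K27me3 sum of 90, just under its limit), and most keratin-associated genes lie below both lines.

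Among the keratins, Krt83 and the simple epithelial genes Krt19, Krt8, Krt7 and Krt18 had the most H3K27me3 at E17.5. Krt19, a type I keratin of ducts and glands (chr11:100002124-100009979), had H3K27me3 of 158, 174, 79 and 68. Krt8, the type II keratin of simple epithelia (chr15:101827142-101834773), had 129, 182, 108 and 89, and its partner Krt18 (chr15:101858647-101862457) had 108, 159, 86 and 72. All 3 were highest at PN1 and lowest at PN15. Krt7, a type II keratin of ducts (chr15:101241474-101260744), had 128, 136, 159 and 119, and so ended near where it began. Krt20, the keratin of intestinal epithelium, differed from the other 4 with only 18, 7, 20 and 30.

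A change between E17.5 and PN15 was called when the log2 ratio (pseudocount 1), less the median of all symbols, was at least 1 in size and the Poisson 95% intervals of the 2 values, read as reads, did not overlap. These intervals, and the exact binomial intervals given with ratios, cover counting error only. By this rule Krt19 was the only keratin lower in H3K27me3 (ratio of PN15 to E17.5 0.43, 95% interval 0.319 to 0.575), beside 8.05% of all symbols. Symbols that began from 100 to under 200 lost H3K27me3 at large, with 46.0% of 722 called lower and a median log2 change of -0.94. The 5 keratins that began there had a median of -0.53. Krt19, at -1.20, lay below the median of such symbols, whereas Krt8 (-0.53), Krt18 (-0.58), Krt7 and Krt83 lay above it. The PN15 library had the smallest sum over entries of this mark, and its part in the falls from a high start was not tested.

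Krt83, a hair keratin (chr15:101261921-101269235), had the highest H3K27me3 of all members, with 164, 200, 245 and 186. It is the neighbour of Krt7. Its H3K4me2 ran from 17 and 14 to 8 and 1, and was called lower at PN15, with a ratio of 0.0588 and a 95% interval of 0.00141 to 0.375.

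A rise of H3K27me3 was called at more keratins than a fall, but 44 of the 52 keratins began from 10 to under 35 and 2 below 10. Of all symbols that began at these levels, 2.12% of 7843 and 0 of 8860 were called lower, so falls were seldom called there. H3K27me3 was called higher at PN15 than at E17.5 at 15 of 52 keratins and at 4 of 49 keratin-associated genes, beside 3.15% of all symbols. The median centred log2 change was 0.78 in keratins and 0.46 in keratin-associated genes, beside 0.00 in all symbols and 0.51 in olfactory receptors. The rise of the median keratin-associated gene was thus no larger than that of the receptors, of which 18 of 1047 were called higher. H3K27me3 of some marker genes moved the same way in these libraries. Summed over each list it was 35, 34, 72 and 164 in Müller glia genes, mostly from Rlbp1 (8, 11, 55 and 136, called higher), and 86, 111, 231 and 298 in the corneal list, mostly from Pax6 (4, 15, 113 and 178, called higher). It was 67, 80, 48 and 47 in photoreceptor, 71, 71, 82 and 75 in pigment epithelium, 77, 84, 78 and 85 in lens and 188, 193, 135 and 125 in endothelial genes. The part of the cell types in the rise at the keratins was not tested. Of the 15 keratins, 13 were type II, out of 24 type II keratins, and 2 were type I, out of 27. Among symbols that began from 10 to under 35, 31.8% of 44 keratins were called higher against 4.35% of all 7843 symbols and 2.30% of 305 olfactory receptors.

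**Figure D3:**
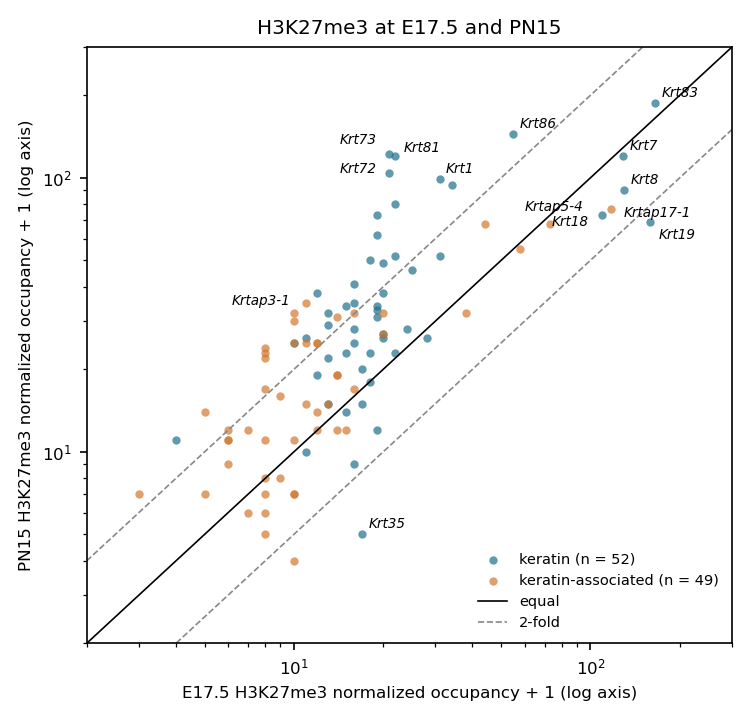
H3K27me3 normalized occupancy plus 1 at PN15 against E17.5 for each member on log axes, with the line of equality and dashed lines at 2-fold. A group of keratins that includes Krt73, Krt81, Krt72, Krt86 and Krt1 lies above the upper dashed line, and Krt19 lies below the lower line, as does Krt35, whose intervals overlapped.

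The rise was grouped by position. On chromosome 15, 12 of 24 genes were called higher, and 10 of them were consecutive, from Krt74 to Krt78 (the run was found after the values were seen). This run held inner root sheath keratins (Krt74, Krt72, Krt73) and keratins of the epidermis, sweat duct and oral or oesophageal mucosa (Krt2, Krt1, Krt77, Krt76 and Krt4), with Krt79 and Krt78 at its end, and so spanned several epithelia. The median H3K27me3 of the run was 20, 19.5, 53 and 75.5 at the 4 stages.

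Within the run, Krt73 (chr15:101623739-101632774), a keratin of the inner root sheath cuticle, had H3K27me3 of 20, 16, 110 and 121, a ratio of 6.05 (95% interval 3.75 to 10.3). Krt72 (chr15:101606603-101616889), expressed in the same layer, had 20, 19, 92 and 103. In both genes the low pair of libraries was E17.5 and PN1 and the high pair PN7 and PN15. Krt2 (chr15:101641120-101648600), a keratin of the upper epidermis, had 21, 17, 77 and 79, and Krt1 (chr15:101675859-101681217), the type II keratin of suprabasal epidermis, had 30, 30, 67 and 98. Krt77, of the sweat duct, had 33, 43, 82 and 93. In genomic order from Krt74 the PN15 values were 40, 103, 121 (Krt73), 79, 98, 93, 61, 72, 49 and 51, the last 2 at Krt79 and Krt78, so the highest pair was Krt72 and Krt73 and the values beyond it did not fall evenly.

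The other genes called higher on chromosome 15 were the hair keratins Krt81 and Krt86, which stand side by side near Krt83. Krt81 (chr15:101289492-101294196) had H3K27me3 of 21, 32, 81 and 119, a ratio of 5.67 (95% interval 3.54 to 9.49), and Krt86 (chr15:101303909-101310414) had 54, 61, 145 and 143, a ratio of 2.65 (1.92 to 3.69). Between Krt83 and Krt81, 1700011A15Rik, which is outside the members by its symbol alone, took the same course with 26, 34, 72 and 95. Krt85, the hair keratin with no position here, had 12, 11, 6 and 31.

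Between these stretches lay 6 neighbouring keratins, Krt84, Krt82, Krt75, Krt6b, Krt6a and Krt5, followed by Krt71, with H3K27me3 between 8 and 37. Most of their values lay under the receptors' 95th percentile of the library (21, 22, 22.7 and 29), the exceptions being Krt84 at E17.5 (23), Krt82 and Krt71 at PN7 (24 and 25) and Krt6a at PN15 (37). Krt5, the type II keratin of the basal layer (chr15:101537501-101543322), had H3K27me3 of 9, 13, 13 and 24. Krt6a and Krt6b, which are induced in wounded epidermis, had 19, 13, 14 and 37 and 10, 16, 8 and 25. These 7 genes with Krt80 at the other end had medians of 17, 15, 19.5 and 26.5. All 8 were higher in value at PN15 than at E17.5, although none was called over that span, and 44.5% of all symbols and 75.6% of olfactory receptors were higher in value too. In all, 21 of the 24 genes of the cluster (87.5%) were higher in value at PN15, 19 had their highest value there, and the exceptions in direction were Krt7, Krt8 and Krt18.

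**Figure D4:**
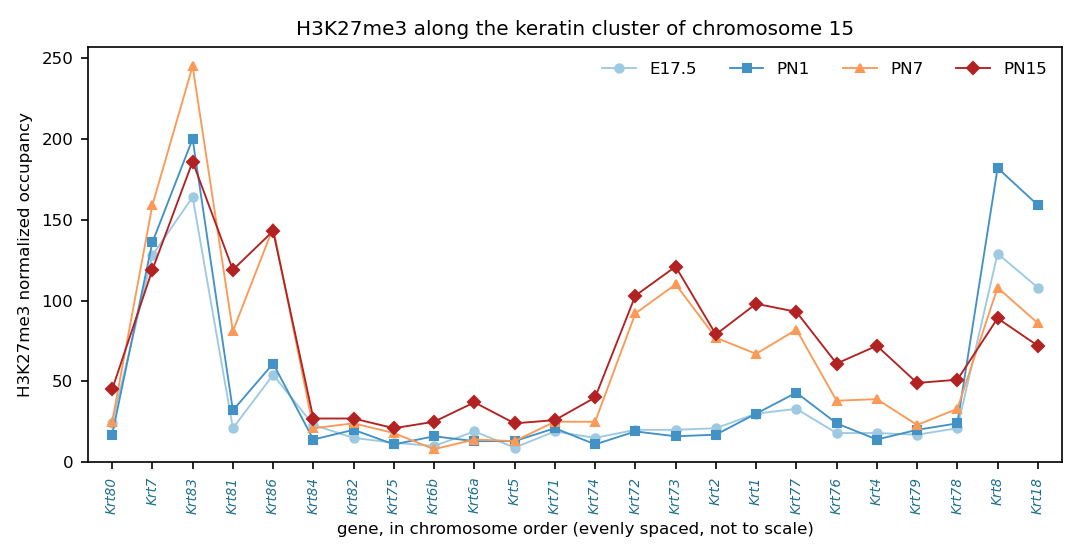
H3K27me3 normalized occupancy at the 24 genes of the chromosome 15 cluster in genomic order (evenly spaced), with a line for each stage joining neighbouring genes. PN7 and PN15 rise above E17.5 and PN1 at Krt81 and Krt86 and from Krt74 to Krt78, while Krt7 and Krt83 at the left and Krt8 and Krt18 at the right are high in every library.

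Among the 5 genes on each side of the cluster, 3 of 10 were called lower in H3K27me3 and 1 of 10 higher, beside 8.05 and 3.15% of all symbols. It was lower at Acvrl1 (258, 302, 145 and 66), Nr4a1 (152, 132, 53 and 10) and Igfbp6 (275, 325, 260 and 126) and higher at Tenc1 (10, 10, 13 and 28). Of the 3 other symbols of the table inside the cluster, 1700011A15Rik and 4732456N10Rik (7, 14, 18 and 25) were called higher and Gm5414 (9, 4, 7 and 11) was not.

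Most of the keratin calls between neighbouring stages fell between PN1 and PN7, a timing that rests on the 1 PN7 library of H3K27me3. That library had 3.7% of entries at 0, against 0.0755 to 0.159% in the other 3. Of 292 vomeronasal receptors, 0 were called higher and 13 lower from PN1 to PN7. From PN7 to PN15, 36 of them were called higher and 0 lower. The part of the PN7 library in the timing was not tested. From E17.5 to PN1, 0 keratins were called higher, beside 0.389% of all symbols. From PN1 to PN7, 9 keratins were called higher, beside 1.55%, and 8 of these lay on chromosome 15, the other being Krt40. From PN7 to PN15, 4 were called higher, beside 3.49%, namely Krt6a, Krt6b, Krt79 and Krt85. In this step the median centred log2 change was 0.22 in keratins and 0.70 in olfactory receptors, of which 41 of 1047 were called higher. No keratin was called lower in any of the 3 steps, beside 0.205, 2.85 and 5.01% of all symbols, whatever their starting level.

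On chromosome 11 the genes called higher lay on both sides of the border between the families. They reached lower occupancy at PN15 than those of chromosome 15 (23 to 48 against 40 to 143), while their ratios of PN15 to E17.5, from 2.53 to 3.44, lay within the range of chromosome 15, from 2.43 to 6.05. The hair keratins Krt39 and Krt40, the last before the keratin-associated block, had H3K27me3 of 11, 15, 34 and 37 and of 19, 25, 67 and 48. The next 3 genes are Krtap3-3, Krtap3-2 and Krtap3-1, which encode high-sulphur matrix proteins of the hair cortex. Krtap3-3 (chr11:99411446-99412177) had 10, 20, 49 and 34, Krtap3-2 had 11, 14, 31 and 24, and Krtap3-1 had 9, 11, 29 and 31. Krt39, Krt40, Krtap3-3 and Krtap3-1 were called higher, Krtap3-2 was not. Further into the block the called genes were Krtap4-1 (9, 10, 18 and 29) and Krtap4-6 (7, 9, 12 and 23), and 17 of the 21 block genes (81.0%) were higher in value at PN15 than at E17.5, a share near the 75.6% of olfactory receptors.

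The inner root sheath keratins of type I, Krt25 to Krt28, which pair with the Krt71 to Krt74 group, reached only 33, 28, 33 and 25 at PN15, and none was called. Their type II partners on chromosome 15 reached 26, 103, 121 and 40 (Krt71, Krt72, Krt73 and Krt74). Of the basal and corneal keratins, Krt14 (chr11:100064476-100068862) had 30, 35, 47 and 51, Krt15 had 17, 11, 12 and 17, and Krt12 had 19, 33, 35 and 25. The hair keratins behind the block, Krt33a to Krt36, had no value above 24 in any library.

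**Figure D5:**
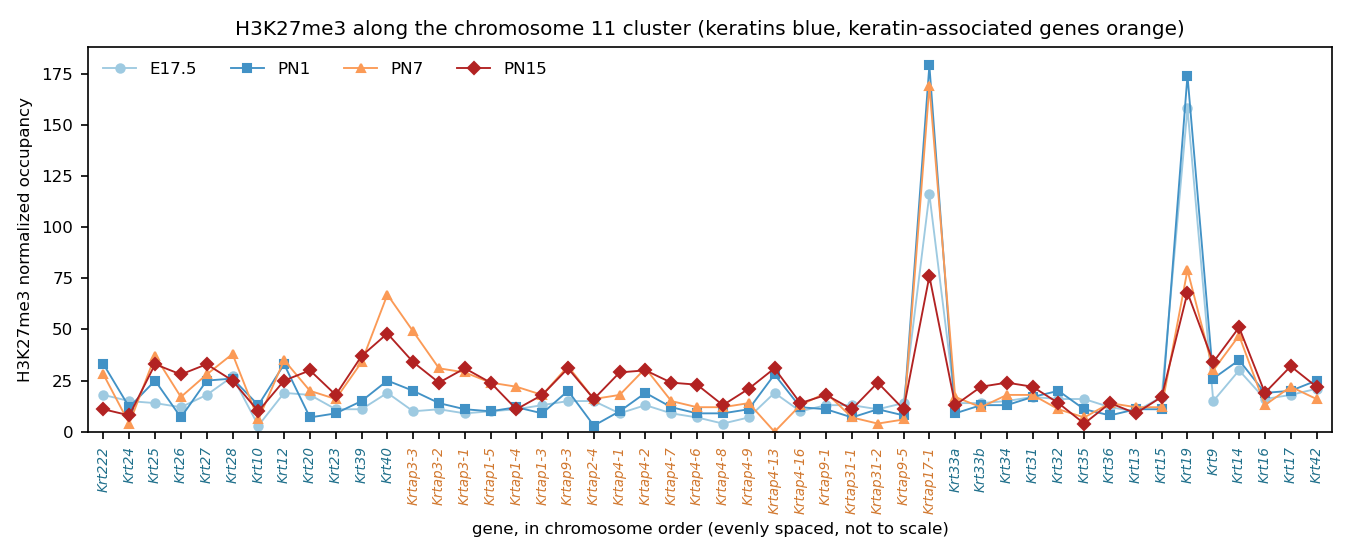
H3K27me3 normalized occupancy at the keratins (blue labels) and keratin-associated genes (orange labels) of chromosome 11 in genomic order (evenly spaced), with a line for each stage. Krtap17-1 and Krt19 stand out at every stage, and PN7 and PN15 lie above E17.5 and PN1 from Krt39 to Krtap3-1.

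The keratin-associated genes differed by locus. Krtap17-1, the last gene of the chromosome 11 block (chr11:99854548-99855308), had H3K27me3 of 116, 179, 169 and 76, while its neighbours Krtap9-5 and Krt33a had 14, 8, 6 and 11 and 14, 9, 17 and 13. It was called lower from PN7 to PN15. Its window had 67 CpG, the most in the block, against a block median of 40.

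The Krtap5 genes, which encode ultrahigh-sulphur proteins, held H3K27me3 without a change that was called. Krtap5-4 (chr7:149489407-149490408) had 72, 78, 75 and 67, Krtap5-1 had 57, 60, 40 and 54, and Krtap5-3 had 43, 62, 57 and 67. Krtap5-2, with 37, 38, 21 and 31, and Krtap5-5, with 19, 19, 13 and 26, were lower. Their windows had the lowest median number of CpG of any locus, 22, with a range of 13 to 35. Reads of near-identical genes are uncertain here: 65.7 to 85.1% of the positions in these 5 windows had a 32-base sequence found nowhere else in mm9, and the authors removed reads with several positions.

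The 20 genes on chromosome 16, most of them for glycine and tyrosine-rich or high-sulphur matrix proteins, lay at the receptor background. Their median H3K27me3 was 7, 6.5, 5.5 and 7, the highest value in any library was 15, and 0 were above background or called changed in this mark. The median receptor had 7, 7, 6 and 10. GC content moved with the low values. It was 38.1% in the median chromosome 16 window and 42.5% in the chromosome 11 block, against 49.2% in the keratins and 36.6% in olfactory receptors, and the rank correlation of GC with summed H3K27me3 across the 48 placed keratin-associated genes, which share their libraries and lie in a few clusters, was 0.721 (Spearman, given as a description). Across 51 keratins it was 0.265. The part of GC content in these values was not tested.

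Near-identical copies limited a few other members. Windows under 80% unique were found for 11 members, of which 3 were keratins (Krt16, Krt6a and Krt6b), and 0 of these 11 were called changed from E17.5 to PN15. In the step from PN7 to PN15, however, Krt6a and Krt6b were 2 of the 4 keratins called higher, and Krtap31-2 (4 to 24) was called higher too, so these calls rest on windows of limited uniqueness. Krtap4-13, with the lowest share (40.1%), had H3K27me3 of 19, 28, 0 and 31, and was called lower from PN1 to PN7 and higher from PN7 to PN15, around the value of 0 at PN7. Windows at least 90% unique were found for 14 of the 19 members called higher, 1 of which was not placed, and for 66 of all 99 placed members. The windows of Krtap1-5 and Krtap1-4, of Krtap4-8 and Krtap4-9, and of Krtap16-1 with Krtap16-9 and Krtap16-5 overlap, so the values of each pair share reads.

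H3K4me2 was weak at the keratins and changed at few. It was called lower from E17.5 to PN15 at 3 of 52 keratins, beside 4.01% of all symbols, and higher at 0, beside 1.97%; without regard to counting intervals 15 would be lower and 3 higher, beside 12.8 and 5.17% of all symbols and 21.9 and 13.0% of olfactory receptors by the same rule. Krt15, a basal and hair bulge keratin (chr11:99993072-99997263), had H3K4me2 of 22, 18, 4 and 1, a ratio of 0.0455 (95% interval 0.0011 to 0.281). Krt8 had 27, 22, 11 and 2, a ratio of 0.0741 (0.00854 to 0.295). The third was Krt83. All 3 were lower at each later stage, and lens and endothelial H3K4me2 was lower at PN15 than at E17.5 in the same libraries (27 against 55 and 17 against 64, summed), as was that of the corneal list (59 against 162, mostly Pax6), while that of the retinal pigment epithelium list was higher (90 against 70, mostly Mitf). The part of those cells in the result was not tested.

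Between neighbouring stages, H3K4me2 of keratins was called higher and lower at 0 and 0 from E17.5 to PN1, beside 0.0848 and 0.434% of all symbols. From PN1 to PN7 it was called higher at 0, beside 5.64%, and lower at 3 (Krt1, Krt15 and Krt40), beside 3.91%. From PN7 to PN15 it was called higher at 2 (Krt10 and Krt222), beside 4.75%, and lower at 0, beside 1.57%. The last pair of steps meets in the PN7 library, in which 939 of 1047 olfactory receptors were at 0.

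The partners Krt8 and Krt18 parted in H3K4me2. Krt18 had 25, 15, 9 and 28, so that at PN15 it stood at its highest (95% interval 18.6 to 40.5) where Krt8 was at its lowest (0.242 to 7.22). In H3K27me3 both had their lowest value at PN15. Krt19 had H3K4me2 of 33, 28, 13 and 14, a centred log2 change of -1.31 that was not called because the intervals at E17.5 and PN15 overlapped (22.7 to 46.3 and 7.65 to 23.5). Krt7 had no more than 7 in any library.

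Among the keratins with H3K4me2 alone above background, Krt222, a keratin-like gene at the start of the chromosome 11 cluster (chr11:99094075-99105399), had H3K4me2 of 18, 15, 6 and 34, and Krt10, the type I keratin of suprabasal epidermis (chr11:99246568-99250678), had 13, 6, 4 and 20. Both were highest at PN15. The H3K27me3 of Krt222 was 18, 33, 28 and 11, a sum of 90 that lay just under the limit of 93.7, and that of Krt10 was 3, 13, 6 and 10. Krt73 was the only gene of the rising run above the H3K4me2 background in every library, with 22, 14, 5 and 9, and H3K27me3 rose there as H3K4me2 went from 22 to 9, a difference that was not called.

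Median H3K4me2 of the 15 keratins that gained H3K27me3 was 4, 5, 0 and 4, and that of the 4 keratin-associated genes was 2, 6, 0 and 2. A loss of H3K4me2 could be called only from an E17.5 value of 9 or more, even if PN15 were at 0. Of the 19 genes only Krt1 and Krt73 began there, with 10 and 22, and the other 17 began between 1 and 8, so a loss of H3K4me2 was not detectable at most of them; 0 of the 19 were called in either direction in this mark. Among the keratin-associated genes, H3K4me2 was called higher at 1 of 49, a share near the 1.97% of all symbols, and lower at 0. The 1 was Krtap3-2 (chr11:99417137-99418167), with 4, 5, 0 and 18, a ratio of 4.5 (95% interval 1.48 to 18.3). Its flanking genes Krtap3-3 and Krtap3-1 had 4 and 0 at PN15.

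Other genes of keratin filaments and of the epidermis were read against the same shares of all symbols, 3.15% called higher in H3K27me3 and 8.05% lower from E17.5 to PN15. A high start goes with a loss at large, since 78.4% of the 879 symbols that began at 200 or more were called lower, as were 46.0% of those from 100 to under 200. Of 14 genes for desmosomes and linkers, 0 were called higher and 3 lower, namely the plakophilins Pkp1 (498 at E17.5 and 152 at PN15) and Pkp2 (40 and 11) and the periplakin gene Ppl (443 and 144). Of 8 genes of the cornified layer, 0 were called in either direction, and loricrin, Lor, had 143 and 79. Of 11 regulators of epidermis and hair, 0 were called higher and 3 lower, Hoxc13 (646 and 272), Ovol1 (479 and 171) and Grhl3 (116 and 56), while Trp63, the regulator of stratified epithelia, had 9 and 7. Of the genes called lower, Pkp1, Ppl, Hoxc13 and Ovol1 began above 200. Among the regulators, 2 of 6 that began at 200 or more and 1 of 3 from 100 to under 200 were called lower. For desmosomes and linkers these counts were 2 of 3 and 0 of 1, and 0 of 2 genes of the cornified layer were called lower from 100 to under 200. Median centred log2 changes of the 3 lists were -0.57, 0.07 and -0.76, against 1.28 in the chromosome 15 cluster, 0.78 in all keratins and 0.51 in olfactory receptors. Starting levels were not matched, with median E17.5 values of 37, 28 and 237 in the lists and 20.5 in the cluster.

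Of 10 genes on the list of neural intermediate filaments, 3 were called lower in H3K27me3 and 1 higher. The 3 lower were among the 4 that began at 200 or more, where most symbols lost the mark. The neurofilament genes Nefh and Ina fell from 457 to 45 and from 308 to 90 while their H3K4me2 was called higher, from 26 to 80 and from 37 to 87, and Nefl fell from 272 to 123 while its H3K4me2 was called lower too, from 59 to 22. Nestin, Nes, the filament of neural progenitors, rose from 23 to 93, in the range of Krt1 and Krt77 at PN15, but with H3K4me2 of 74, 45, 47 and 39, which was called lower, where Krt1 had 10, 13, 0 and 4.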

How the data were processed

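ChIP-Seq for H3K4me2 and H3K27me3 was done on mouse retinas of 4 stages, 1 library per mark and stage. Reads were aligned by the authors to mm9 (Bowtie 0.12.4), those with several positions were dropped, fragments were taken as 190 bp long and reads within 2.5 kb of a RefSeq TSS were summed. The deposited values are a score: these sums, scaled by the authors to the total of mapped reads and rounded. Since they are not counts, count models were not applied. The table deposited has 25152 entries (20045 symbols) in 8 columns, of which that of the PN7 H3K27me3 library bears an additional letter b. Of the 10 samples of the series, 2 (H3K4me2 in rd1/rd1 retinas at PN30 and an anti-GFP control) were not analysed here.

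Where a symbol had several entries, that with the largest total across all libraries was kept; among the members only Krtap4-13 had more than 1. The members, gene lists and rules were chosen with earlier results of these data known, and the runs of neighbours, the bands of starting level and the groups of window uniqueness were chosen after the values were seen. The genes named are the simple epithelial, basal and corneal keratins, the 6 largest sums per family and mark, the members called changed (up to 8 per family, mark and direction) and, beyond that rule, genes named for their position or counts. No whole number below 110 was absent from any column, so that 1 read was worth at most about 1 unit of occupancy, and intervals that read a value as reads are at least as wide as the counting error. A count of 3 reads then stands for an occupancy of at most 3. Read depth per library is not given in the sources used here. With no replicates, no p-value was computed, and differences between libraries, animals and stages cannot be told apart.

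Positions are from the GENCODE vM1 annotation of mm9 (99 of the 101 members placed), with the start of the CCDS transcript taken where there was one, so some windows may differ from those of the authors. CpG, GC content and 32-base uniqueness were computed in these 5 kb windows. Promoters are from RefSeq (GRCm38.p6), matched by symbol or synonym. The calling rules were tested on simulated data. Alternatives tried were other background percentiles and receptors, the PN7 libraries left out of the sum, each library held to its own limit, a pseudocount of 5, a filter of 10, no centring, fold alone and the mean over entries. Scripts ran under Python 3.11.15 (pandas 2.3.3, numpy 2.4.6, matplotlib 3.10.9, scipy 1.17.1).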

Additional observations from a re-analysis of the deposited data

How the results depend on the processing

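Of 60 alternatives over 12 counts of members, 43 left the count within 1.5 times its main value and 17 moved it further. With the receptors' 99th percentile as the limit, H3K27me3 was above background at 14 keratins and 4 keratin-associated genes and H3K4me2 at 15 and 2. With vomeronasal receptors as the background, H3K27me3 was above it at 47 keratins and 20 keratin-associated genes. When every library had to clear its own limit, the numbers were 9 and 4 for H3K27me3 and 4 and 0 for H3K4me2. Called by fold alone, without the counting intervals, 2 keratins were lower in H3K27me3, 3 higher and 15 lower in H3K4me2, and among keratin-associated genes 16 were higher and 1 lower in H3K27me3 and 4 higher and 7 lower in H3K4me2. By that rule 12.2% of all symbols were higher and 16.1% lower in H3K27me3, and 5.17 and 12.8% in H3K4me2, beside 25.1, 1.91, 13.0 and 21.9% of olfactory receptors; the count of keratins higher in H3K27me3 stayed within 1.5 times under every alternative run. No paired analysis was possible because each mark and stage has 1 library and no value comes from a test. For the same reason no replicate could be left out. Many H3K4me2 values are under 10, where counting intervals are wide, and with read depth not given in the sources used here, low depth and low signal cannot be told apart.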
